A study of Sus scrofa with 5 samples.

Results

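Oxidative phosphorylation subunits are the proteins that make up the respiratory chain and the ATP synthase of the inner mitochondrial membrane. The genes described here were the nuclear genes of these subunits on a porcine expression array, chosen by symbol: NDUFA, NDUFB, NDUFC, NDUFS and NDUFV genes for complex I, SDHA to SDHD for complex II, UQCR genes and CYC1 for complex III, COX4 to COX8 genes for complex IV and ATP5 genes for complex V, without the assembly factors NDUFAF and SDHAF. The rule gave 60 genes of the 6765 that had a probe set annotated with 1 symbol. They were 33 genes of complex I, 4 of complex II, 2 of complex III, 7 of complex IV and 14 of complex V. Together they had 75 probe sets, and the probe set with the highest mean over the 5 arrays stood for each of the 12 genes that had several. CYC1, COX4I1 and COX5A were not among the annotated symbols and were not analysed here. Of 26 names for subunits encoded in mitochondrial DNA, 0 had a probe set by symbol.

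Backfat is the subcutaneous adipose tissue over the back of the pig. The arrays came from 5 females of an Iberian × Landrace backcross (BC1_LD), 1 array per animal, all fed the same cereal-based diet ad libitum and slaughtered at about the same age. The H pigs were BC4, BC5 and BC6 (n = 3) and the L pigs were BC2 and BC3 (n = 2). The study ranked the backcross animals by the first principal component of carcass and intramuscular fatty acid (FA) traits. H pigs had more polyunsaturated FA in the muscle, and L pigs more saturated and monounsaturated FA. Sibs were avoided within a group, and the remaining L animal, BC1, was not analysed here. The groups were thus chosen on muscle fat composition and not on a treatment, so other traits of the animals could differ with them. The question put to these data was whether, and in which complexes, the subunit genes differed between H and L backfat.

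Complex I passes electrons from NADH to ubiquinone, and complex II, which is also the succinate dehydrogenase of the tricarboxylic acid cycle, passes them from succinate. Complex III hands them to cytochrome c, complex IV transfers them to oxygen, and the ATP synthase, complex V, uses the proton gradient built by complexes I, III and IV. White adipocytes hold few mitochondria compared with brown adipocytes or muscle fibres, and their mitochondria supply ATP and citrate for lipid synthesis. In whole tissue, fewer cells of a type and less RNA per cell cannot be told apart.

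All values below are log2 values of probe sets after the normalization of the authors, so a difference of 1 is a 2-fold difference. They ran from a floor of 2.17 to 16.1, and levels of different genes were not compared because probe sets differ in affinity. Array medians lay between 4.26 and 4.29 in the H pigs and between 4.21 and 4.25 in the L pigs. Of 23999 probe sets tested with limma as H minus L, 0 passed the threshold of p 0.01, adjusted p 0.1 and a 1.2-fold difference. An unadjusted p under 0.05 was found for 762. Adipocyte genes identified the tissue, since FABP4, a fatty acid carrier of adipocytes, was between 15.36 and 15.49 on every array. Albumin, a liver gene, stayed at or below 4.69, although APOA1, an apolipoprotein of liver and intestine, was between 11.29 and 12.57. The lymphocyte genes CD3E, CD3D, CD2 and CD79B were at the floor on all arrays.

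Subunit genes were lower in the H pigs in nearly every case, by small amounts. Of the 59 genes whose value varied, 56 were lower in H (94.9%) and 3 were higher, namely SDHA, ATP5J and NDUFB9. Over the 60 genes the median difference, H minus L, was -0.34, which is 0.788 times the L level. The quartiles were -0.43 and -0.25, and the range ran from -0.71 for COX7A1 to 0.35 for SDHA. Among the 5831 genes that varied on the arrays, 49.8% were lower in H, with a median of 0.00. Among the 4143 of them with a mean above 6, where 58 of the 60 subunit genes lay, 51.8% were lower in H. The median of all 4145 genes with such a mean was -0.011. The plot of the differences of subunit genes and of all genes shows the subunit genes as a narrow peak to the left of 0.

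**Figure D1:**
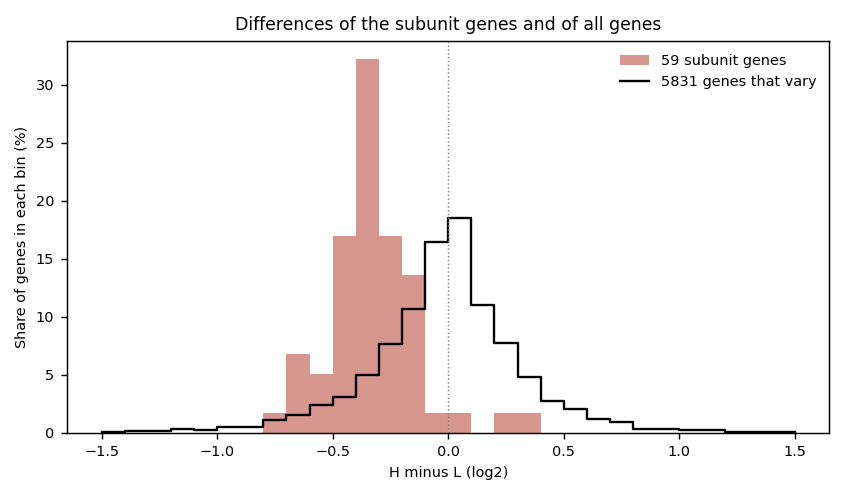
The share of genes (%) in bins of 0.1 of the difference H minus L (log2), with 59 subunit genes as bars and all 5831 genes that varied as a line, over the range from -1.5 to 1.5. The bars lie mostly between -0.5 and -0.1, whereas the line is centred on 0.

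Taken gene by gene, the differences were small against the spread of the animals. No subunit gene passed the threshold, and the smallest adjusted p among them was 1 from limma. At an unadjusted p under 0.05, 5 of the 60 genes were lower in H and 0 were higher. That is 8.33% of the genes, beside 1.58% of all probe sets that were lower and 1.60% that were higher at this p. Of the genes that varied, 2.92% were lower at this p, and of the 4143 among them with a mean above 6, 3.16% were. With each array centred on its median, 17 subunit genes were under this p, all lower in H, beside 2.85% of all probe sets and 5.94% of those 4143 genes. The 3 H arrays were all below both L arrays for 24 subunit genes, or 40.7% of those that varied, and above both for 0. Of all genes that varied, 10.0% lay below both L arrays and 8.27% above. The difference between groups was larger than the gap between the 2 L pigs for 23 subunit genes, and larger than the range of the 3 H pigs for 28. The subunit genes were measured in the same 5 animals and are not replicates, so no test over the list is given.

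The animals formed a graded order that the group labels describe only in part. BC2, an L pig, had the highest value for 48 of the 59 genes that varied (81.4%, against 22.3% of all genes that varied). An H pig, BC5 or BC6, had the lowest for 53 (89.8%, against 45.1%), with BC5 and BC6 tied for ATP5I. Relative to the mean of each gene, the median deviation was 0.04 on BC4, -0.24 on BC5 and -0.18 on BC6 in the H group, and 0.42 on BC2 and 0.02 on BC3 in the L group. BC4 therefore sat at the level of the L pig BC3. The median difference BC4 minus BC3 was 0.00, with 29 genes lower in BC4, 29 higher and the tied ATP5I. BC5 was below BC3 for 52 genes, with a median difference of -0.23, and BC6 for 54, with a median of -0.19. The L pigs themselves differed by more than this, since BC2 was above BC3 for 52 genes by a median of 0.39.

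**Figure D2:**
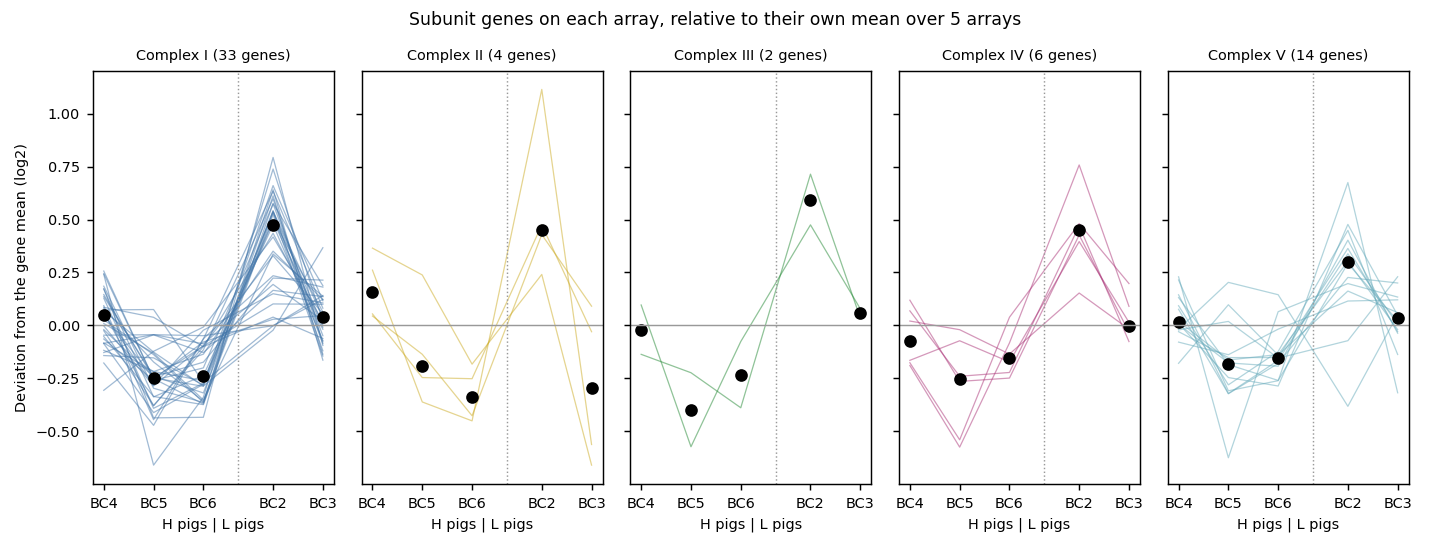
Deviation of each subunit gene from its own mean over the 5 arrays (log2, vertical axis) on each array (horizontal axis, H pigs left of the dotted line and L pigs right of it), 1 thin line per gene and a black dot for the median, in a panel per complex without the invariant COX8H. In every complex BC2 has the highest median, and in all but complex II BC5 has the lowest.

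Other measures also differed among these arrays. Endothelial genes had their lowest value on BC2 for 6 of 7 measured genes, the other being KDR, tied at the floor on all arrays but BC5. They had their highest value on BC5 for 6. Their summed level, the log2 of the sum of the unlogged values, was 13.31 to 14.20 in H and 13.08 to 13.63 in L. In such a sum the brightest probe sets weigh most. Smooth muscle genes had their lowest value on BC2 for 3 of the 4 that varied. Their summed level was 13.06 to 13.87 in H, against 12.67 and 13.55 on BC2 and BC3 of the L group. Contractile and other genes of skeletal muscle were highest on BC5 for 8 of the 10 that varied, CA3 included. For these 8, BC3 was next, tied with BC2 for MYH7. TNNT1 was highest on BC3, and TNNC1 was at the floor on all arrays. TNNT3, TNNT1 and MYH7 were dim, at or below 3.36. The summed level of the 10 muscle genes other than CA3 was 6.09, 9.66 and 5.76 on the H arrays BC4, BC5 and BC6. It was 5.88 and 7.73 on the L arrays BC2 and BC3. CA3, a carbonic anhydrase of muscle that adipocytes also express strongly, was left out of this sum after its values were seen. With it the sum was 11.44, 11.04 and 13.56 on BC4, BC5 and BC6, against 14.04 and 12.08 on BC2 and BC3, so that BC2 was then the highest array and BC5 the lowest. The 5 macrophage genes were highest on BC6, and their summed level was 8.96 to 11.34 in H and 9.98 to 10.21 in L. The summed level of 6 adipocyte genes was 15.91 to 16.08 in H and 15.94 to 16.01 in L. FABP4 carried most of that sum. ADIPOQ, which encodes adiponectin, had 12.20, 9.09 and 10.92 on BC4, BC5 and BC6, against 11.82 and 10.52 on BC2 and BC3. LEP, which encodes leptin, had 8.27, 4.41 and 10.48 on BC4, BC5 and BC6, against 9.33 and 8.43 on BC2 and BC3. Both genes were lowest on BC5. The other 4 adipocyte genes, FABP4, LIPE, PNPLA2 and CIDEA, had their lowest value on BC6. All 6 were thus lowest on BC5 or BC6, as were 45.1% of all genes that varied. FABP4 and LIPE had their highest value on BC5, and 0 of the 6 had it on BC2. The difference between the 3′ and the 5′ probe set of GAPDH, a measure of RNA integrity that is higher in more degraded RNA, was 1.90, 2.49 and 1.81 on the H arrays BC4, BC5 and BC6, against 1.52 and 1.82 on the L arrays BC2 and BC3. It was lowest on BC2 and highest on BC5, as was the same measure for EF1A. For beta-actin the measure was 4.03, 4.80 and 3.85 on BC4, BC5 and BC6, against 4.06 and 4.77 on BC2 and BC3, so that BC2 was not the lowest and BC3 was close to BC5. The part of cell composition and of RNA integrity in the subunit differences was not tested.

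Complex I was lower in H for 32 of its 33 genes, with a median of -0.36 and a range from -0.65 to 0.02. All 3 H arrays lay below both L arrays for 16 of these genes, and 4 had an unadjusted p under 0.05 from limma. Of all genes that varied, 10.0% lay below both L arrays and 2.92% were lower at this p. The catalytic core carries the flavin and the iron-sulfur clusters, and 5 of its 7 nuclear genes were measured. All 5 were lower in H, with a median of -0.39, beside -0.36 for the 28 other genes.

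NDUFS1, the largest core subunit, binds iron-sulfur clusters in the arm that oxidizes NADH. It had 8.53, 8.43 and 8.52 in the H pigs BC4, BC5 and BC6, against 9.00 and 8.77 in the L pigs BC2 and BC3. The groups did not overlap, and the difference was -0.39 ± 0.09 (standard error, n = 3 and 2, unadjusted p = 0.0171, adjusted p = 1 from limma). NDUFV1 binds NADH and the flavin, and it had 9.26, 8.88 and 8.80 in BC4, BC5 and BC6, against 9.66 and 9.00 in BC2 and BC3. Here BC4 lay between the L pigs, and the difference was -0.35 ± 0.29 (standard error). NDUFS7, which holds the last iron-sulfur cluster before ubiquinone, had 9.07, 8.90 and 8.68 in BC4, BC5 and BC6 and 9.68 and 8.88 in BC2 and BC3, so that BC4 and BC5 lay between the L pigs.

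The smallest p of all subunit genes was that of NDUFA3, an accessory subunit. It had 9.47, 9.56 and 9.47 in BC4, BC5 and BC6 of the H group, against 9.77 and 9.74 in BC2 and BC3 of the L group. Its arrays were close within each group, and the difference was -0.25 ± 0.04 (standard error, unadjusted p = 0.00403, adjusted p = 1 from limma). NDUFA7, another accessory subunit, had 9.59, 9.36 and 9.43 in the H pigs, against 9.83 and 9.82 in the L pigs, a difference of -0.36 ± 0.08 (unadjusted p = 0.0158 from limma). Both genes thus differed little between BC2 and BC3, unlike most of the complex. NDUFB5, an accessory subunit of the membrane arm, had 10.72, 10.44 and 10.40 in the H pigs, against 11.35 and 10.96 in the L pigs. That made a difference of -0.64 ± 0.18 (unadjusted p = 0.0346 from limma), with no overlap. With ATP5E of complex V, these were the 5 subunit genes under this p.

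NDUFA4, counted here by its symbol, is nowadays assigned to complex IV. It had 12.03, 11.71 and 11.84 in BC4, BC5 and BC6, against 12.78 and 12.24 in BC2 and BC3, and its difference of -0.65 ± 0.22 (standard error) was the largest of the NDUF genes with all 5 arrays. NDUFA10 varied most in complex I, with an SD of 0.54 over the 5 arrays. It had 9.39, 8.49 and 8.81 in the H pigs, against 9.89 and 9.17 in the L pigs, so that BC4 exceeded BC3. NDUFAB1, which is also the acyl carrier protein of mitochondrial fatty acid synthesis, had 11.57, 10.96 and 10.96 in the H pigs, against 12.19 and 11.30 in the L pigs, with the same overlap. NDUFB9, a partner of that acyl carrier protein, varied least, with an SD of 0.08. It had 11.99, 11.95 and 11.81 in the H pigs, against 11.95 and 11.85 in the L pigs. Its difference of 0.019 ± 0.077 was the only positive one in the complex, and it turned to -0.023 when each array was centred on its median.

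By symbol family, all 13 NDUFA genes and all 5 NDUFS genes were lower in H, with medians of -0.40 in both families. Of the 10 NDUFB genes 9 were lower, with a median of -0.36. The 3 NDUFV genes had a median of -0.21, and NDUFC1 and NDUFC2 had -0.35 and -0.17. The dimmest gene of the complex, NDUFV3, was near 4.7 on average, and its difference of -0.06 ± 0.18 lay within its error.

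**Figure D3:**
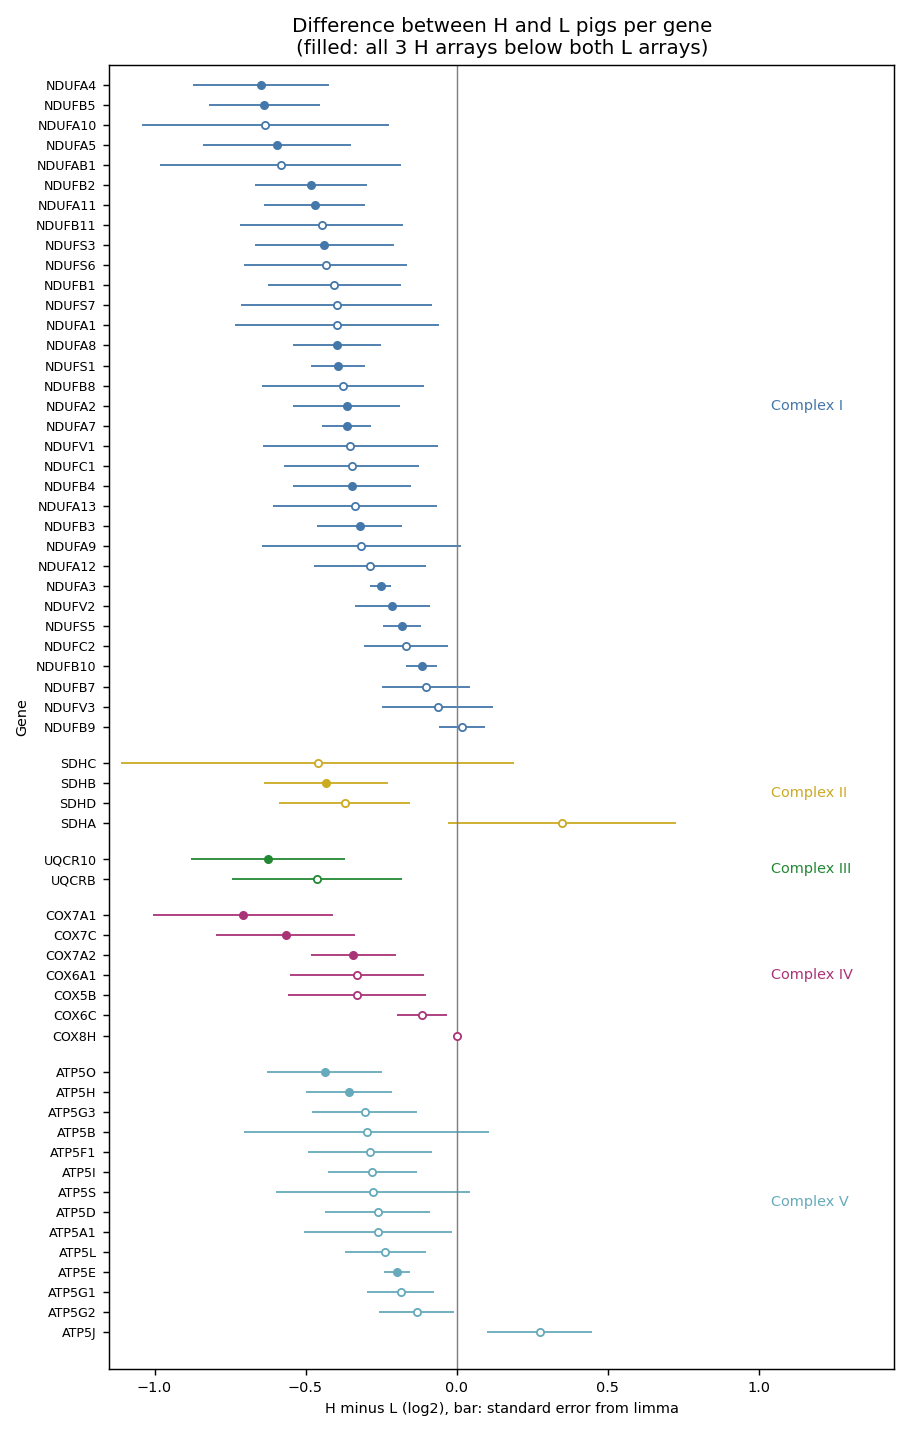
Difference H minus L (log2, horizontal axis) of each of the 60 subunit genes (vertical axis) with its standard error from limma, by complex. Filled points mark the 24 genes whose 3 H arrays were all below both L arrays, and 3 points lie to the right of 0.

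The 4 genes of complex II differed among themselves, and 3 were lower in H. SDHB, the iron-sulfur subunit, had 11.14, 10.96 and 10.67 in BC4, BC5 and BC6 of the H group, against 11.53 and 11.19 in BC2 and BC3 of the L group. The groups did not overlap, at -0.43 ± 0.21 (standard error). Its other probe set, however, gave 0.00 ± 0.12. SDHD, a membrane anchor, had 11.55, 11.25 and 11.24 in the H pigs, against 11.97 and 11.47 in the L pigs, a difference of -0.37 ± 0.22 with BC4 above BC3. SDHC, the other anchor, had the largest spread of all subunit genes, with an SD of 0.70. It had 9.40, 8.77 and 8.68 in the H pigs, against 10.25 and 8.57 in the L pigs, so that all H pigs lay between the L pigs. The difference of -0.46 ± 0.65 became 0.38 without BC2.

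SDHA, the flavoprotein that oxidizes succinate, went the other way. It had 11.64, 11.51 and 11.09 in BC4, BC5 and BC6, against 11.52 and 10.62 in BC2 and BC3, and its other probe set was also higher in H, by 0.24 ± 0.61. The difference of 0.35 ± 0.38 (standard error) lay within its error and rested on the low value of BC3. Without BC3 it was -0.10. The median over the 4 genes of the complex was -0.40, and it was 0.13 when BC2 was left out.

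For complex III only UQCR10 and UQCRB, both small subunits without a redox group, had a probe set with 1 symbol. UQCR10 had 11.33, 11.24 and 11.07 in BC4, BC5 and BC6, against 12.18 and 11.50 in BC2 and BC3. The groups did not overlap, and the difference was -0.62 ± 0.26 (standard error, unadjusted p = 0.0833 from limma). UQCRB, which contributes to the binding of ubiquinone, had 11.71, 11.04 and 11.53 in the H pigs, against 12.08 and 11.69 in the L pigs, a difference of -0.46 ± 0.28. BC4 and BC3 were nearly equal for it.

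In complex IV all 6 genes that varied were lower in H, with a median of -0.33 over the 7 genes, and 3 did not overlap. Of all genes that varied on the arrays, 10.0% had every H array below both L arrays. COX7A1, the isoform of subunit VIIa found in heart and skeletal muscle and, in mice, in brown fat, had the largest difference of all 60 genes with all 5 arrays. It had 10.00, 9.61 and 10.11 in BC4, BC5 and BC6 of the H group (9.91 ± 0.26, SD, n = 3), against 10.95 and 10.28 in BC2 and BC3 of the L group (10.61 ± 0.47, SD, n = 2). The difference was -0.71 ± 0.30 (standard error, unadjusted p = 0.0893 from limma). It was -0.37 without BC2. In that comparison NDUFA12 at -0.48, NDUFB5 at -0.44, COX7C at -0.42 and NDUFA4 were lower in H by more. SDHA at 0.80 and SDHC at 0.38 were higher in H without BC2, and also larger in size. Without BC3 the difference of COX7A1 was -1.04, and that of SDHC was -1.30. COX7A2, the isoform present in most tissues, had 10.72, 10.81 and 10.71 in the H pigs, against 11.28 and 10.90 in the L pigs. The difference was -0.34 ± 0.14, also without overlap.

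COX7C had 12.50, 12.14 and 12.72 in the H pigs, against 13.16 and 12.88 in the L pigs, a difference of -0.57 ± 0.23 (standard error). A dimmer probe set of this gene, near 5.1, gave 0.37 ± 0.23. COX6A1, the isoform of subunit VIa in most tissues, had 12.74, 12.35 and 12.37 in the H pigs, against 13.04 and 12.59 in the L pigs, with BC4 above BC3. The difference of COX5B was the same in size, at -0.33. COX6C was the steadiest gene of the complex among those that varied, with 13.17, 13.13 and 13.01 in the H pigs, against 13.30 and 13.13 in the L pigs. COX8H, named for the heart isoform of subunit VIII, was at 2.22 on all 5 arrays, near the floor, and has no direction.

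Complex V had the median difference nearest to 0, with 13 of 14 genes lower in H, a median of -0.27 and 3 genes without overlap. Beside these 3 of 14, 10.0% of all genes that varied had every H array below both L arrays. ATP5E, the epsilon subunit of the central stalk, had 12.57, 12.51 and 12.63 in BC4, BC5 and BC6, against 12.76 and 12.77 in BC2 and BC3. The difference was small but larger than the spread within the groups, at -0.20 ± 0.04 (standard error, unadjusted p = 0.0150, adjusted p = 1 from limma). ATP5H, subunit d of the peripheral stalk, had 11.64, 11.25 and 11.39 in the H pigs, against 11.80 and 11.77 in the L pigs, a difference of -0.36 ± 0.14. ATP5O, the subunit that joins that stalk to the catalytic head, had the largest difference of the complex with all 5 arrays, -0.44 ± 0.19, also without overlap.

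The catalytic beta subunit ATP5B varied most, with an SD of 0.44. It had 12.55, 12.02 and 12.07 in the H pigs, against 13.01 and 12.01 in the L pigs, so that every H pig lay between the L pigs. Its difference of -0.30 ± 0.41 turned to 0.20 without BC2. The alpha subunit ATP5A1 had a difference of -0.26 ± 0.25. The 3 genes of the membrane ring subunit c, ATP5G1, ATP5G2 and ATP5G3, had -0.19 ± 0.11, -0.13 ± 0.12 and -0.30 ± 0.17, each with overlap. ATP5J, coupling factor 6 of the peripheral stalk, was the exception. It had 9.69, 9.91 and 9.85 in BC4, BC5 and BC6, against 9.32 and 9.76 in BC2 and BC3, a difference of 0.28 ± 0.17, and BC2 was its lowest array. ATP5S, taken in by its symbol, is the coupling factor B gene and is not counted as a subunit of the classical enzyme. It had 9.27, 8.42 and 9.11 in the H pigs, against 9.24 and 9.18 in the L pigs.

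**Figure D4:**
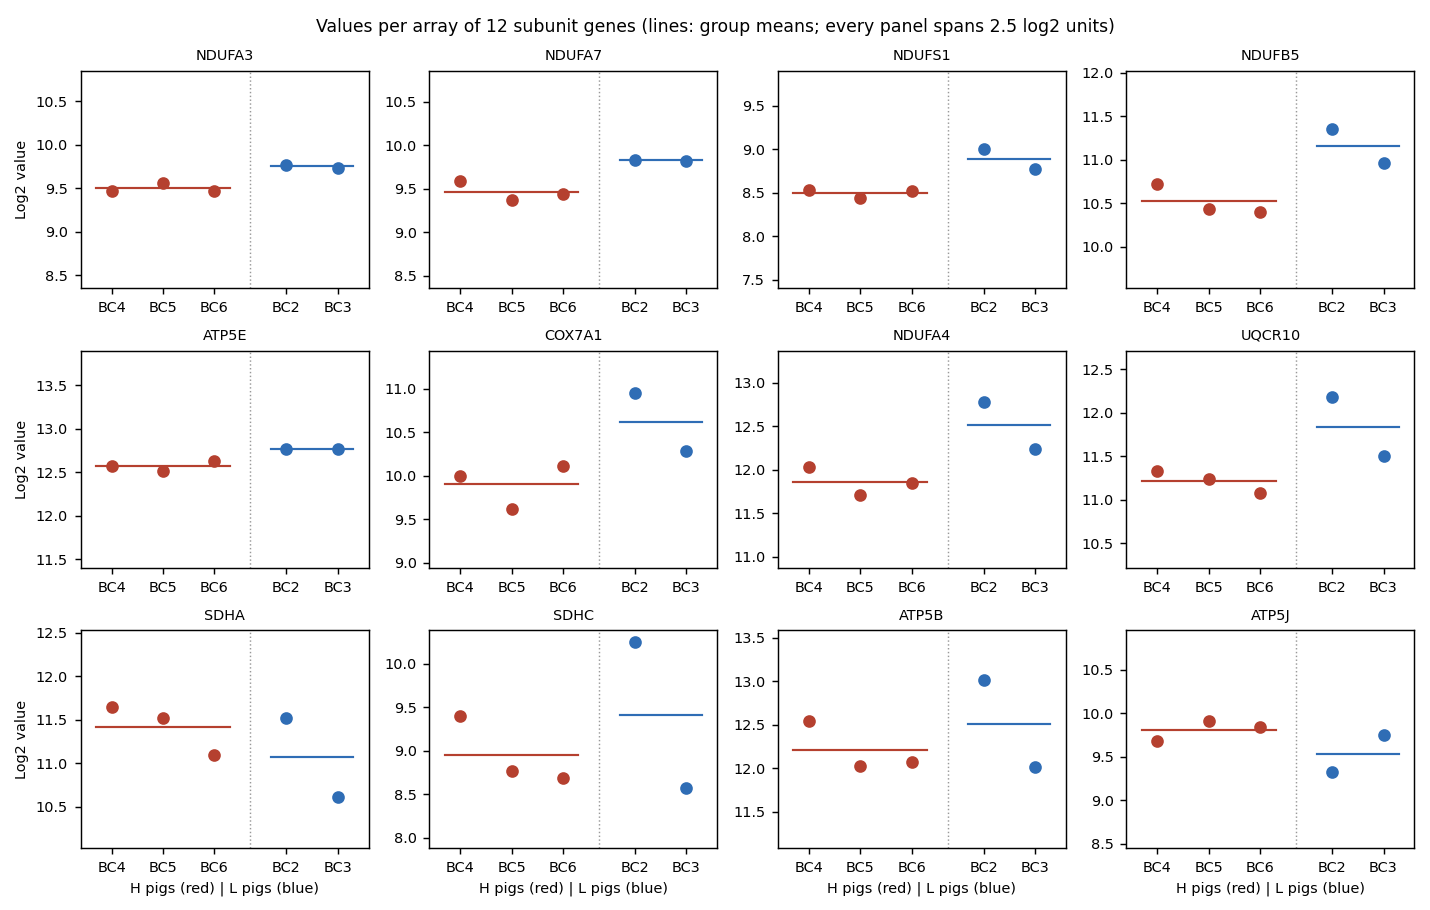
Log2 values of 12 subunit genes on each array, H pigs in red left of the dotted line and L pigs in blue right of it, with group means as lines and the same span of 2.5 in every panel. The H points lie below both L points for NDUFA3, NDUFA7, NDUFS1, NDUFB5, ATP5E, COX7A1, NDUFA4 and UQCR10, whereas the groups overlap for SDHA, SDHC, ATP5B and ATP5J.

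Since BC2 stood above the other pigs, the comparison was repeated without each animal in turn. Without BC2 the median difference of the 60 genes was -0.15, and 51 genes were lower in H and 8 higher. The difference of all H pigs from BC3 alone was thus smaller than that from both L pigs, and 5 genes that had been lower turned to higher, namely SDHC at 0.38, ATP5B at 0.20, ATP5A1 at 0.034, NDUFA9 at 0.019 and NDUFS7 at 0.0054. Without BC3 the median was -0.56, with 57 genes lower. The median was -0.45 without BC4, -0.28 without BC5 and -0.29 without BC6, with 55 to 57 genes lower. Without BC4, the H pig nearest to the L group, 49 genes had both remaining H arrays below both L arrays and 1 had them above. With these 4 arrays, 18.8% of all genes that varied lay below, more than the 10.0% with all 5. The complexes kept a negative median in each of these comparisons, except complex II without BC2.

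**Figure D5:**
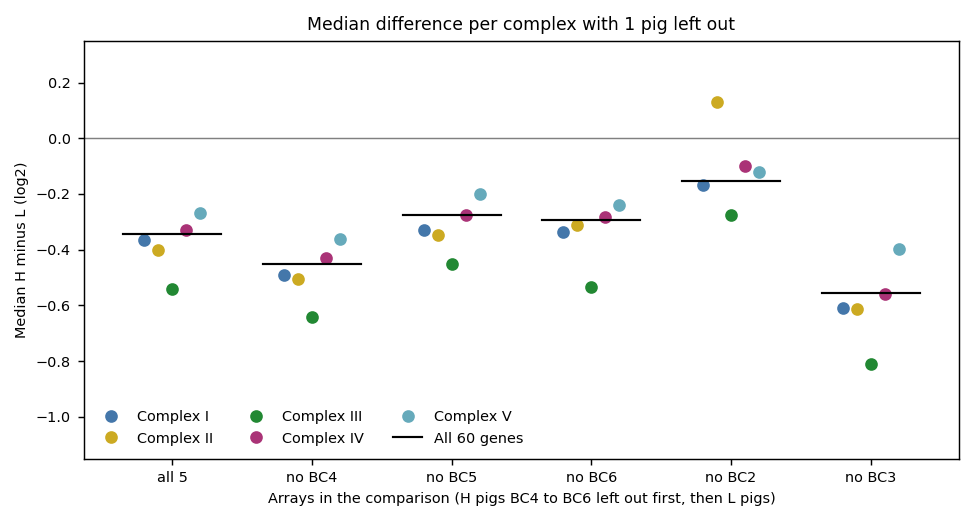
Median difference H minus L (log2, vertical axis) of the genes of each complex (coloured points) and of all 60 genes (black lines), with all 5 arrays and with 1 pig left out at a time (horizontal axis). All medians are below 0 apart from complex II without BC2, and they are nearest to 0 without BC2.

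The poly-A control transcripts added to the samples also separated the arrays, although across the groups. Their mean was 4.93, 7.29 and 4.69 on the H arrays BC4, BC5 and BC6, against 4.69 and 7.58 on the L arrays BC2 and BC3. Between the arrays with high controls, the median difference of BC5 from BC3 was -0.23, with 52 of 59 genes lower in BC5. Between those with low controls, the median difference of the mean of BC4 and BC6 from BC2 was -0.49, with 57 genes lower. With the control level as a block in limma, 56 genes were again lower in H. At an unadjusted p under 0.05 there were then 13, which included the 5 found without the block, and all 13 were lower in H. In that fit 2.93% of all probe sets and 5.91% of the 4143 genes that varied with a mean above 6 were lower at this p.

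Genes that serve the same pathway were less uniform. Of 17 genes of the tricarboxylic acid cycle and pyruvate dehydrogenase, 15 were measured, and 12 were lower in H, with a median of -0.30. An unadjusted p under 0.05 from limma was found for 0 in that direction and for 2 that were higher. Of all probe sets, 1.58% were lower and 1.60% higher at this p. All 3 H arrays lay below both L arrays for 3 of the 15 genes and above both for 2. Of all genes that varied, 10.0% lay below and 8.27% above. Those below were FH at -0.51 ± 0.20 (standard error), SUCLG1 at -0.30 ± 0.12 and PDHA1 at -0.31 ± 0.23. For PDHA1, BC6 and BC2 were both at 8.85. DLST, a subunit of the 2-oxoglutarate dehydrogenase complex, had 8.95, 8.98 and 8.84 in the H pigs BC4, BC5 and BC6, against 8.59 and 8.58 in the L pigs BC2 and BC3. The groups did not overlap, and the difference was 0.34 ± 0.05 (standard error, unadjusted p = 0.00482, adjusted p = 1 from limma). IDH3A, a subunit of isocitrate dehydrogenase, had 7.41, 7.45 and 7.47 in the H pigs, against 7.33 and 7.30 in the L pigs, also higher in H without overlap, by 0.13 ± 0.02 (unadjusted p = 0.0107, adjusted p = 1 from limma). Citrate synthase, CS, had 12.64, 12.08 and 12.05 in the H pigs, against 12.76 and 12.20 in the L pigs. PDHB, of pyruvate dehydrogenase, had 11.10, 10.35 and 10.10 in the H pigs, against 11.65 and 10.67 in the L pigs, the largest difference of that list at -0.65 ± 0.50. Over the 15 genes the median was -0.048 without BC2, with 9 lower in H, and -0.51 without BC3, with 13 lower.

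Of 14 genes for electron carriers and for the exchange of nucleotides and phosphate, 13 were measured, and 8 were lower in H, with a median of -0.22. The median was -0.079 without BC2, with 9 lower, and -0.17 without BC3, with 8 lower. ETFA, which brings electrons from fatty acid oxidation, had 10.88, 10.50 and 10.88 in the H pigs, against 11.39 and 11.06 in the L pigs, a difference of -0.47 ± 0.20 (standard error) without overlap. VDAC2, a channel of the outer membrane, was higher in H, with 10.82, 10.89 and 10.93 in the H pigs, against 10.53 and 10.71 in the L pigs (unadjusted p = 0.0325, adjusted p = 1 from limma). The phosphate carrier SLC25A3 and the nucleotide carriers SLC25A5 and SLC25A6 had differences of 0.013 ± 0.055, 0.0050 ± 0.098 and 0.013 ± 0.069 (standard error). BC2, the highest array for most subunit genes, was not the highest for any of these 3 carriers. SLC25A4, another nucleotide carrier, varied more, with an SD of 0.66 and a difference of -0.14 ± 0.65. ATPIF1 at -0.48 ± 0.25, without overlap, and VDAC1 at -0.33 ± 0.27 were highest on BC2.

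Assembly factors, which build the complexes but do not stay in them, were measured for 14 of 47 genes. Of the 13 that varied, 10 were lower in H, with a median of -0.17 over the 14, and 0 had a p under 0.05. The median was -0.055 without BC2, with 8 lower, and -0.17 without BC3, with 10 lower. NDUFAF3, a factor for complex I, had 8.64, 8.45 and 8.47 in the H pigs, against 8.64 and 8.80 in the L pigs, so that BC4 and BC2 were equal at this precision. BCS1L, a factor for complex III, was dim, with 3.14, 3.30 and 3.19 in the H pigs, against 3.94 and 3.46 in the L pigs. Among regulators of mitochondrial biogenesis, 5 of 14 genes were measured. All 4 that varied were higher in H, with a median of 0.09 over the 5 and 0 with a p under 0.05. Of these, TFB1M at 0.085 ± 0.14 (standard error) and YY1 at 0.030 ± 0.12 lay within their error, with overlap. PPRC1, a coactivator related to PPARGC1A, had 6.57, 6.62 and 7.17 in the H pigs, against 6.11 and 6.34 in the L pigs, a difference of 0.56 ± 0.25 (standard error) without overlap. TFAM, which packages mitochondrial DNA, had 10.21, 9.83 and 9.82 in the H pigs, against 9.79 and 9.67 in the L pigs, a difference of 0.22 ± 0.16, also without overlap. Thus 2 of the 5 regulators lay above both L arrays, beside 8.27% of all genes that varied. PPARGC1A itself was at the floor on all arrays. Over the 5 regulators the median was 0.17 without BC2, with 1 lower in H, and 0.16 without BC3, with 0 lower.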

How the data were processed

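RNA of backfat from 5 females was hybridized to the Affymetrix porcine array, 1 array per animal. The deposited log2 values had been adjusted for background, normalized between arrays and summarized per probe set by the authors. For this step GCRMA is given in the methods but RMA in the submitters' notes, and which was used is not settled. Liver is written in the extraction note, and backfat in the tissue label and in the paper. Groups came from the animal names and the study's list of animals. RNA-Seq data were not analysed here.

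Of 24123 probe sets, 124 controls were left out and 23999 were tested as H minus L with limma 3.58.1 in R 4.3.3, without covariates, with Benjamini-Hochberg adjustment over all of them. The threshold (p 0.01, adjusted p 0.1, 1.2-fold) was that of the study's RNA-Seq. The steps were tested on simulated data. A table of probe annotation gave 1 symbol for 10069 probe sets, several for 198 and none for 13732. Values within 1e-06 of each other counted as equal. The number of arrays limits the precision, and p-values rest on 3 against 2 animals.

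The subunit genes, the lists and the tests were chosen with earlier results of these data known. Named were, per complex, the genes with the smallest p in each direction and the largest and smallest SD, all of complex II, the isoform pairs, genes at the floor, symbols that are not subunits, and the 2 genes of each further list with the smallest p. Other genes named were chosen after their values were seen. The planned results for the subunit genes were also computed with other settings where these applied. The settings were other scalings, a filter on dim probe sets, other variance models, weighted arrays, another probe set per gene, and leaving out each animal in turn. Medians of the further lists were repeated only with the control level as a block and without BC2 or BC3. The summed levels of marker genes were not repeated.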

Additional observations from a re-analysis of the deposited data

How the results depend on the processing

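No paired analysis was possible because the H and L pigs share no animal numbers. With 1 L array left, that array was taken to be as variable as the H arrays. Leaving out 1 animal at a time gave median differences from -0.56 to -0.15 over the 60 subunit genes (-0.34 with all), from -0.61 to -0.17 in complex I, from -0.61 to 0.13 in complex II, from -0.81 to -0.27 in complex III, from -0.56 to -0.10 in complex IV and from -0.40 to -0.12 in complex V. The extremes came without BC3 and without BC2. Subunit genes at an unadjusted p under 0.05 were 5 with all animals and 2 to 18 with 1 left out, with 2 without BC6, 3 without BC2 and 18 without BC3. They were 17 with each array centred on its median and 13 with the control level as a block, which was chosen after seeing the data. For the counts at this p with 1 animal left out, the share of all genes is not given. Those whose H arrays lay on 1 side of the L arrays were 24 with all animals and 24 to 51 with 1 left out, with 50 without BC4 and 51 without BC3. These counts take both sides. Subunit genes with H below L alone were 24 with all animals, 27 without BC2 and 50 without BC3. They were 49 without BC4, 25 without BC5 and 24 without BC6. Those with H above L were 3 without BC2, 1 without BC3 and 1 without BC4. The share of all genes that varied with H below L, which leaves out those above, also rose with fewer arrays, from 10.0% with all animals. It was 22.9% without BC2, 26.1% without BC3, 18.8% without BC4, 13.8% without BC5 and 16.9% without BC6. Of all probe sets, 0 passed with 5 arrays, 1 passed with the block, and 0 to 286 passed with 1 animal left out, with 160 without BC2 and 286 without BC3, where a single L array stands for its group. Among 294 repeats for genes named by rule, 288 kept their direction and side of the threshold. A part of these repeats could not change a direction. The other variance models and the filter on dim probe sets left every difference as it was, as did another probe set for genes with only 1. Repeats without an animal, with other scalings, with weighted arrays or with the block could change it. The 6 that reversed were ATP5B at 0.20 and SDHC at 0.38 without BC2, SDHA at -0.10 without BC3, and NDUFB9 at -0.023 with median centring, -0.020 without BC4 and -0.031 without BC3. With 1 animal left out, ATP5B ranged from -0.79 to 0.20, SDHC from -1.30 to 0.38, SDHA from -0.10 to 0.80 and NDUFB9 from -0.031 to 0.073. The filter on the dimmest 40% of probe sets removed 1 subunit gene, COX8H. The cause of these shifts was not tested beyond which array was left out.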
